A study of Mus musculus with 74 samples.

Results

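Interferon-stimulated genes were followed from primary mammary tumor (PT) to lung metastasis (Lung met) in mice that carry different oncogenes or different genetic backgrounds. The set was 41 genes chosen by symbol, of which 7 (Irf1, Gbp2, Gbp3, Gbp7, Iigp1, Igtp and Irgm1) were treated as gamma-like, best known as targets of interferon gamma, and the other 34 as type I-like. They were among 16791 to 18331 genes that passed a low-level filter in the tables with mouse reference identifiers, and among 15397 and 15401 in the tables of the BALB and SEAGN crosses. Bulk RNA-seq of dissected tissue measures tumor cells and the cells around them together, so fewer cells of a type and less RNA per cell cannot be told apart.

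The mice were female and carried 1 transgene each. MMTV-Her2 and MMTV-Myc express the oncogene from the mouse mammary tumor virus promoter, which is active in mammary epithelium, and C3(1)TAg (C3Tag) expresses the SV40 large T antigen from the C3(1) promoter, all on the FVB background. In the PyMT-F1 mice an FVB male with the MMTV-PyMT transgene had been bred to a BALB/cJ (BALB), SEA/GnJ (SEAGN) or AKR/J (AKR) female, so each animal was an F1 hybrid. The labels gave 6 PTs and 6 Lung mets for each of Her2, Myc, BALB, SEAGN and AKR and 7 of each tissue for C3Tag, 74 samples in all. In the Her2, Myc and C3Tag models, animals with a single lesion had it removed by surgery and were then aged. The PyMT animals kept their primary tumors until the endpoint. The PTs of 1 animal were combined, and whole metastases were taken.

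The values analysed were the authors' mean of normalized counts for each gene and tissue, 1 mean per tissue in each of 5 tables. No value of a single sample, no SD and no depth entered, so each difference below is the difference between a pair of means without a replicate check, and none was tested. The ratio is given as log2((Lung met mean + 1) / (PT mean + 1)) and is positive where the mean was higher in Lung met. A member was counted as higher or lower at 1.5-fold. Genes needed an average of both means of at least 10, which each member with means passed. For Myc no mean was analysed. The labels of the PyMT-F1 samples contradict each other in part on strain and tissue, so which samples entered each F1 mean was not settled. The table that bears the AKR name carries, for nearly all genes compared, the fold changes that the study's supplement lists under another cross, so its strain was not settled either, and it is called AKR-named throughout.

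Interferons are secreted when cells sense viral or misplaced nucleic acid. Type I interferons act through the receptor chains IFNAR1 and IFNAR2 and a complex that contains STAT2 and IRF9, which binds the interferon-stimulated response element (ISRE), whereas interferon gamma, released mainly by T cells and natural killer cells, acts mainly at the gamma-activated site (GAS). The products of the induced genes block viral replication, amplify sensing, attach or remove the ubiquitin-like protein ISG15 and disrupt vacuoles that hold pathogens. In tumors the same genes are used as a readout of interferon exposure.

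Promoter sequence shows what the members share beyond their names. Windows of 250 bases before to 50 bases after a transcription start, taken from RefSeq on GRCm38.p6, were found for 30 of the 41 members. The ISRE was searched as GAAANNGAAA on both strands and the GAS as TTCNNNGAA, which reads the same on both strands, and a match to one may overlap a match to the other. An ISRE match was present for 16 of 30 members, 53.3%, against 3.99% of 27025 genes with a window. By class, 11 of 24 type I-like and 5 of 6 gamma-like members held one. A GAS match was present for 7 of 30 members, 23.3%, against 9.55% of all genes, and by class for 4 of 24 and 3 of 6. A match of letters is a description of the window and not a measured binding site. No ISRE match was found in the windows of Oasl2, Ifi44, Xaf1, Cmpk2 and Herc6, which recur in the results below. The stretches printed here come only from members with a match. They lie upstream of the RefSeq start, with the ISRE matches in capitals, and belong to genes named in the results below.
Isg15 chr4:156200850-156200909 (- strand): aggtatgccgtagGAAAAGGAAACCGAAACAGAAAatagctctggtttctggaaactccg
Ifit1 chr19:34640779-34640838 (+ strand): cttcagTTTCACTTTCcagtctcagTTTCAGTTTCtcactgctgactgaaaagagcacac
Ifit3 chr19:34583382-34583441 (+ strand): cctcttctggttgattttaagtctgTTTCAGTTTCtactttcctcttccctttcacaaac
Ifit3b chr19:34607778-34607837 (+ strand): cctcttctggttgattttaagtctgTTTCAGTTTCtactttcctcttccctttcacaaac
Oas1a chr5:120907526-120907585 (- strand): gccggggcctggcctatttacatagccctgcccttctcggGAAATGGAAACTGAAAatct
Rsad2 chr12:26456538-26456597 (- strand): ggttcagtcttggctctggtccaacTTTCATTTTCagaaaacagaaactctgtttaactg
Bst2 chr8:71537562-71537621 (- strand): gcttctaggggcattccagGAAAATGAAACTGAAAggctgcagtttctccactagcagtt
Igtp chr11:58199496-58199555 (+ strand): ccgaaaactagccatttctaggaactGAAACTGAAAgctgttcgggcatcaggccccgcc
Stat2 chr10:128270251-128270310 (+ strand): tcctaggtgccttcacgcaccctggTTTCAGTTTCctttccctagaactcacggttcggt

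The stretches of Ifit3 and Ifit3b were the same at 60 of 60 bases, and reads of this gene pair could be split between them by the authors' counting, as could those of the Oas1 and Gbp families. The Irf1 stretch is shown for contrast, with the GAS match in capitals, since no ISRE match was found in its windows.
Irf1 chr11:53769898-53769957 (+ strand): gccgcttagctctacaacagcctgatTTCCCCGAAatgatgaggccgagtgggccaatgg

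Several members are neighbours in the genome. On GRCm38 (GENCODE M21) all 4 Ifit genes lie on chromosome 19 between 34550694 and 34650009, the Gbp genes Gbp7, Gbp3 and Gbp2 on chromosome 3 between 142530342 and 142638008, and Oas2, Oas3 and Oas1a on chromosome 5 between 120730333 and 120907521. Parp14, Dtx3l and Parp9 lie on chromosome 16 between 35832874 and 35972605, and Rsad2 and Cmpk2 are next to each other on chromosome 12 with opposite orientation. The genome build behind the means is not uniform in the sources, so these positions serve as identity only.

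Both means were present for 41 members in Her2, 41 in C3Tag, 37 in BALB, 36 in SEAGN and 36 in AKR-named. Ifit3, Ifit3b, Mx1 and Mx2 had no row under these symbols in BALB and SEAGN, Oas2 was listed without means in SEAGN, and Mx1, Oas2, Oas3, Rsad2 and Gbp7 were listed without means in AKR-named. These values are not analysed here.

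The members did not share 1 direction across the models. Their median log2 ratio was -0.19 in Her2, -0.22 in C3Tag, -0.56 in BALB and -0.08 in SEAGN, and it was 0.63 in AKR-named. The medians over all genes were -0.00, 0.01, 0.03, 0.02 and 0.01 in the same order. BALB was lowest and AKR-named highest, and the medians of Her2, C3Tag and SEAGN lay closer to each other than to either. No member was at least 1.5-fold in the same direction in 3 or more tables. For counts at 1.5-fold over several tables, the share of all genes was computed only for BALB with AKR-named.

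**Figure D1:**
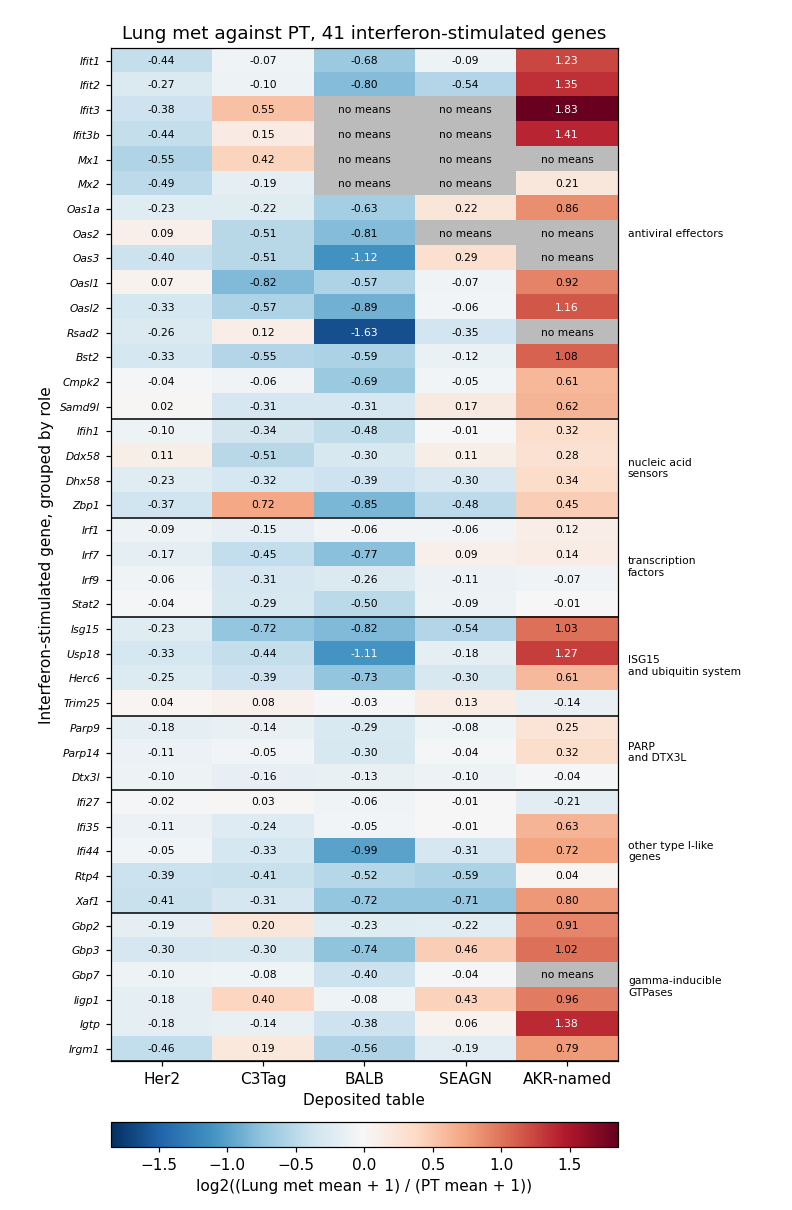
Log2 ratio of the Lung met mean over the PT mean (1 added to each) for the 41 members, in rows by role, in the 5 tables, in columns; blue is lower and red higher in Lung met, and grey marks members without means. The BALB column is blue throughout, from -1.63 to -0.03, and the AKR-named column is mostly red, up to 1.83.

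**Figure D2:**
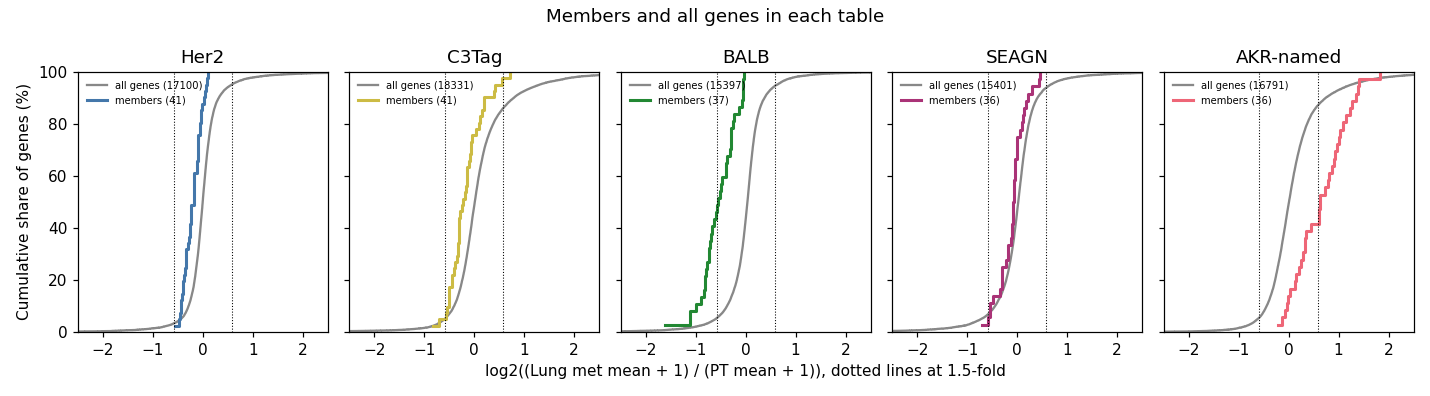
Cumulative share of genes (%) against the log2 ratio of Lung met over PT in each table, for the members (colour) and all genes that passed the filter (grey), with dotted lines at 1.5-fold. The member curve lies left of all genes in BALB (median -0.56 against 0.03) and right of them in AKR-named (median 0.63 against 0.01).

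In Her2 most members were lower in Lung met, by less than 1.5-fold. Of 41 members, 36 had a ratio below 0 (87.8%), against 50.5% of all genes, while 0 reached 1.5-fold in either direction, against 4.84% of all genes higher and 3.27% lower. The ratios ran from -0.55 to 0.11. The lowest 3 were Mx1, a dynamin-like GTPase that blocks influenza virus, with a PT mean of 455 and a Lung met mean of 309, its paralog Mx2, with a PT mean of 500.2 and a Lung met mean of 357 (-0.49), and Irgm1, a regulator of the immunity-related GTPases, with a PT mean of 3414 and a Lung met mean of 2487 (-0.46). Mx2 is annotated as a polymorphic pseudogene in GENCODE M21. The highest 3 stayed near 0, namely Ddx58, which encodes the RNA sensor RIG-I, at 3106 in PT and 3358 in Lung met, Oas2 at 662 and 704, and Oasl1 at 239.8 and 251. Iigp1, an immunity-related GTPase, had means of 11638 in PT and 10281 in Lung met of Her2, and of 926 and 1223 in C3Tag. The tables were normalized separately, so this gap in level was not tested between models.

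In C3Tag the members spread wider, from -0.82 to 0.72, and 31 of 41 (75.6%) lay below 0, against 48.6% of all genes. At least 1.5-fold higher was 1 member, 2.44%, where 13.8% of all genes were, and 2 members were at least 1.5-fold lower, 4.88%, against 5.1%. The member above 1.5-fold was Zbp1, a sensor of left-handed nucleic acid that can trigger necroptosis, with a PT mean of 755 and a Lung met mean of 1244. The lower pair was Oasl1, an OAS-like protein that in mice restrains Irf7 translation, with a PT mean of 774 and a Lung met mean of 439, and Isg15, with a PT mean of 1304 and a Lung met mean of 794 (-0.72). Oasl2 followed, at 3554 in PT and 2392 in Lung met (-0.57). Ifit3 (0.55) and Mx1 (0.42) followed Zbp1 at the high end, with PT means of 462 and 309.9 and Lung met means of 675 and 414. Within the antiviral effectors of this model the Ifit and Oas genes lay apart, with the 4 Ifit genes between -0.10 and 0.55 and the 5 Oas and Oasl genes between -0.82 and -0.22.

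In BALB all 37 members with means had a lower mean in Lung met, where 43.5% of all genes did. At least 1.5-fold lower were 17 of 37 (45.9%), against 5.2% of all genes, and 0 were 1.5-fold higher, against 5.34%. Rsad2, which encodes the radical enzyme viperin that makes a chain-terminating nucleotide, was lowest, with a PT mean of 592 and a Lung met mean of 191, or 3.09-fold lower. Oas3, one of the synthetases of 2′-5′ oligoadenylate that activates RNase L, followed with a PT mean of 266 and a Lung met mean of 122 (-1.12). Usp18, the protease that removes ISG15 and that also dampens IFNAR signaling, had a PT mean of 284 and a Lung met mean of 131 (-1.11). Those 3 members were the ones that also passed 2-fold. The 17 comprised 9 of 11 antiviral effectors (Ifit1, Ifit2, Oas1a, Oas2, Oas3, Oasl2, Rsad2, Bst2 and Cmpk2), 3 of 4 genes of the ISG15 and ubiquitin system (Isg15, Usp18 and Herc6), Irf7, Zbp1, Ifi44, Xaf1 and, from the gamma-like class, Gbp3 alone. At the other end Trim25, the ubiquitin ligase that acts on RIG-I, was at 1569.8 in PT and 1539 in Lung met, Ifi35 at 262 and 252, and Irf1 at 296 and 285.

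In SEAGN, the other cross whose genes carry BALB/cJ identifiers, the members stayed near 0. Below 0 were 27 of 36 (75%), against 46.5% of all genes, and 2 members were at least 1.5-fold lower, 5.56%, where 6.8% of all genes were. None was 1.5-fold higher (0 of 36), against 6.1%. Both lower members belong to the mixed group of type I-like genes. They were Xaf1, a partner of the apoptosis inhibitor XIAP, with a PT mean of 674 and a Lung met mean of 412 (-0.71), and Rtp4, a chaperone of receptors that also binds viral RNA, with a PT mean of 670.4 and a Lung met mean of 445 (-0.59). Isg15 came next, at 159 and 109 (-0.54). The 3 highest were Gbp3, at 109.6 in PT and 151 in Lung met (0.46), Iigp1, at 369 and 497 (0.43), and Oas3, at 113 and 138 (0.29). Rsad2, the lowest member of BALB, had a PT mean of 240.5 and a Lung met mean of 189 here (-0.35).

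In AKR-named the members were higher in Lung met. At least 1.5-fold higher were 21 of 36 (58.3%), against 12.9% of all genes, and 0 were 1.5-fold lower, against 5.59%. Only 5 of 36 (13.9%) lay below 0, where 49.3% of all genes did. Ifit3, whose product joins the IFIT complex that holds foreign RNA, was highest, with a PT mean of 608 and a Lung met mean of 2167, or 3.56-fold higher. Ifit3b followed with a PT mean of 264 and a Lung met mean of 706 (1.41), and Igtp, an immunity-related GTPase that acts at pathogen vacuoles, with a PT mean of 715 and a Lung met mean of 1866 (1.38). The 21 comprised 10 of 11 antiviral effectors, all 5 gamma-inducible GTPases with means, 3 of 4 genes of the ISG15 and ubiquitin system and 3 of 5 of the mixed type I-like genes. They included none of the 4 nucleic acid sensors, the 4 transcription factors or the 3 genes of the Parp9, Parp14 and Dtx3l group. Lowest were Ifi27, a mitochondrial and nuclear envelope protein, with a PT mean of 4043 and a Lung met mean of 3486 (-0.21), Trim25, with a PT mean of 2946 and a Lung met mean of 2670.4 (-0.14), and Irf9, with a PT mean of 2055 and a Lung met mean of 1959.9 (-0.07).

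By role, the effectors and the ISG15 genes differed most between tables. The median ratio of the antiviral effectors was -0.33 in Her2, -0.19 in C3Tag, -0.69 in BALB, -0.06 in SEAGN and 1.08 in AKR-named. Isg15, which encodes the ubiquitin-like modifier itself, had ratios of -0.23, -0.72, -0.82, -0.54 and 1.03 in the same order. Its means in AKR-named were 683 in PT and 1392 in Lung met, and in BALB 285 and 161. It was thus lower in Lung met in 4 tables and higher in 1. Isg15 and Xaf1 were the 2 members at least 1.5-fold lower in 2 tables, and both rested on BALB, with C3Tag for Isg15 and SEAGN for Xaf1.

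Usp18 and Herc6, which remove and attach ISG15 in mice, had the same sign as Isg15 in each of the 5 tables. Usp18 had ratios of -0.33, -0.44, -1.11, -0.18 and 1.27, with means of 265 in PT and 643 in Lung met of AKR-named. Herc6 had ratios of -0.25, -0.39, -0.73, -0.30 and 0.61. Trim25, from the same functional group, lay between -0.14 and 0.13 in all tables.

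**Figure D3:**
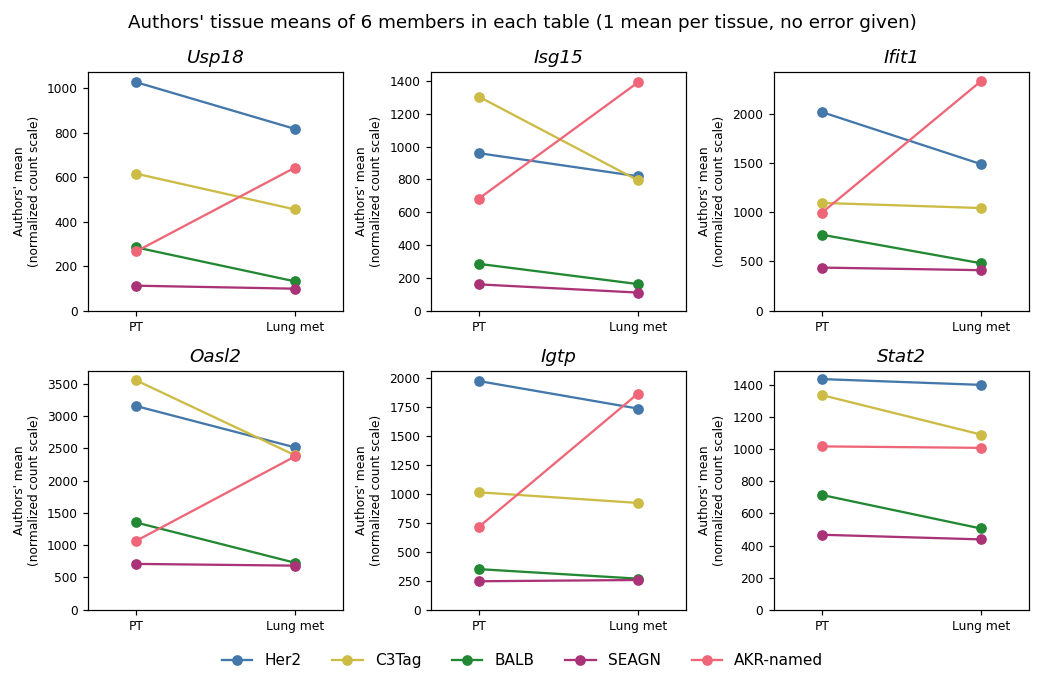
The authors' mean in PT and in Lung met for 6 members, on linear axes that start at 0, with 1 line per table and no error bars because none was given. Usp18, Isg15, Ifit1, Oasl2 and Igtp are higher in Lung met in AKR-named (Usp18 265 and 643) and lower in BALB (284 and 131), whereas Stat2 is nearly level in AKR-named (1018 and 1009).

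The regulators of the response differed less between tissues than its effectors in AKR-named. The transcription factors Irf1, Irf7, Irf9 and Stat2 had a median of 0.05 there and a highest value of 0.14. Stat2, a subunit of the ISRE-binding complex, was at 1018 in PT and 1009 in Lung met. In BALB the same 4 genes had a median of -0.38, with Irf7, the factor that amplifies type I interferon production, at 1591 and 934 (-0.77). Irf1 stayed between -0.15 and 0.12 in all tables.

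The sensors Ifih1 (MDA5), Ddx58 (RIG-I) and Dhx58 (LGP2) stayed within 1.5-fold in each table, between -0.51 and 0.34. Zbp1, the DNA and RNA sensor of that list, ranged from -0.85 in BALB to 0.72 in C3Tag. Parp9 and Dtx3l, which form a ubiquitin ligase, and Parp14, an ADP-ribosyltransferase, lay between -0.30 and 0.32 in all tables. In all, 14 members reached 1.5-fold in no table, namely Mx1, Mx2, Irf1, Irf9, Stat2, Ifi27, Ifih1, Ddx58, Dhx58, Parp9, Parp14, Dtx3l, Trim25 and Gbp7. Without AKR-named that number was 22, and 1 member was 1.5-fold higher and 19 were 1.5-fold lower in at least 1 of the remaining 4 tables. The shares of all genes counted in these ways were not computed, so these counts only describe the members.

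The gamma-inducible GTPases comprised guanylate-binding proteins, which coat and lyse pathogens and their vacuoles, and immunity-related GTPases. Their median was -0.19 in Her2, 0.05 in C3Tag, -0.39 in BALB, 0.01 in SEAGN and 0.96 in AKR-named. Iigp1 had ratios of -0.18, 0.40, -0.08, 0.43 and 0.96. Igtp had -0.18, -0.14, -0.38, 0.06 and 1.38. In AKR-named the means of Gbp2 were 1051 in PT and 1974 in Lung met, and those of Gbp3 were 659.8 and 1336. All 5 with means were at least 1.5-fold higher in that table, and 0 of 6 were in each of the other 4.

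With Irf1 added to form the gamma-like class, type I-like members had the lower median in each of the 5 tables, though in Her2 the sign of the small difference turned, to 0.0092, when the mean of each class was taken in place of the median. The type I-like and gamma-like medians were -0.23 and -0.18 in Her2, -0.30 and -0.08 in C3Tag, -0.61 and -0.38 in BALB, -0.09 and -0.04 in SEAGN and 0.61 and 0.94 in AKR-named. The differences, type I-like minus gamma-like, were -0.04, -0.22, -0.22, -0.05 and -0.33. The gamma-like class held only 6 or 7 genes with means. In BALB 16 of 30 type I-like and 1 of 7 gamma-like members were at least 1.5-fold lower, and in AKR-named 16 of 30 and 5 of 6 were at least 1.5-fold higher.

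BALB and AKR-named were opposite in sign for most members. Of 33 members with means in both, 28 were lower in Lung met in BALB and higher in AKR-named, as were 14.7% of 12169 genes with a symbol in both. All members with means were lower in BALB, so the count of 28 follows from the signs in AKR-named alone. At 1.5-fold in both, 12 members were lower in BALB and higher in AKR-named, as were 0.666% of these genes. The 12 were Ifit1, Ifit2, Isg15, Oas1a, Oasl2, Usp18, Ifi44, Bst2, Xaf1, Cmpk2, Herc6 and Gbp3. They were 12 of the 14 of these members that were 1.5-fold lower in BALB, and 12 of the 19 that were 1.5-fold higher in AKR-named. Ifit1 had a PT mean of 771.2 and a Lung met mean of 481 in BALB and a PT mean of 994 and a Lung met mean of 2332 in AKR-named. Bst2, which encodes tetherin, a protein that holds budding virions at the cell surface, had a PT mean of 253 and a Lung met mean of 168 in BALB and a PT mean of 972 and a Lung met mean of 2063 in AKR-named.

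Across these 33 members the ratios of both tables had a Spearman's rho of -0.54 and a Pearson's r of -0.54, so that members lower in BALB tended to be higher in AKR-named. Over 12169 genes with a symbol in both, rho was 0.32. Her2 and BALB had a rho of 0.47 over 37 members and 0.26 over 12230 genes, and Her2 and AKR-named -0.49 over 36 members. The remaining 7 pairs of tables ranged from -0.20 for Her2 and C3Tag to 0.41 for Her2 and SEAGN. These are descriptions over genes known to be induced together by interferon, which are not independent of each other, and each point rests on a pair of means.

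**Figure D4:**
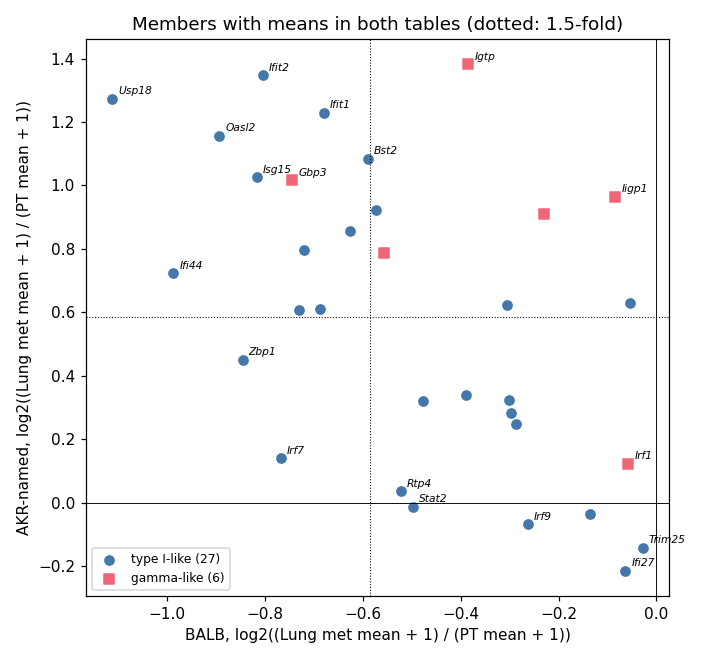
Log2 ratio of Lung met over PT in BALB (horizontal) and in AKR-named (vertical) for the 33 members with means in both, as circles (type I-like, 27) and squares (gamma-like, 6), with dotted lines at 1.5-fold. The upper left corner holds the 12 members lower in BALB and higher in AKR-named, among them Usp18 at -1.11 and 1.27.

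In the other 4 tables more members were lower than higher in Lung met. Of 36 members with means in all 4 of Her2, C3Tag, BALB and SEAGN, 21 had a lower mean in Lung met in each, where 9.07% of 11946 genes with a symbol in all 4 did. Among the 21 were Ifit1, Ifit2, Isg15, Usp18, Stat2, Bst2, Xaf1 and Parp9.

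Members with and without an ISRE match in their window lay farthest apart in AKR-named. In AKR-named the median ratio was 1.02 over 13 members with a match and 0.62 over 14 without, and in Her2 it was -0.25 over 16 and -0.10 over 14. The corresponding values were -0.18 and -0.31 in C3Tag, -0.57 and -0.63 in BALB and -0.06 and -0.06 in SEAGN. Stat2, printed above with a match, had a ratio of -0.01 in AKR-named, whereas Isg15 had 1.03.

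The upstream genes of the pathway were counted by list. Of 10 interferon ligands, only Ifnk had means, below the filter, in BALB (7.6 in PT and 8 in Lung met) and SEAGN (9.04 and 6.67). All 6 receptor chains had means in every table and 0 of 6 reached 1.5-fold in any, with medians from 0.12 in BALB to 0.31 in C3Tag. Ifnar1 was at 565 in PT and 623 in Lung met of BALB and at 1834 and 1974 in AKR-named. Of 10 inducers of interferon, 0 reached 1.5-fold in Her2, BALB and SEAGN, 2 were higher and 2 lower in C3Tag, and 2 of 9 were higher in AKR-named. Of all genes, 13.8% were higher and 5.1% lower in C3Tag, and 12.9% were higher in AKR-named. The shares in the other tables are given with the JAK-STAT genes below. The medians of these receptors and inducers were above 0 in Her2, C3Tag, BALB and SEAGN, where the member medians were below 0. For the inducers they were 0.07, 0.20, 0.01 and 0.04 in that order, and -0.08 in AKR-named. In C3Tag the inducers went both ways, from -0.69 for Tlr3 to 0.74 for Tlr7.

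Of 6 JAK-STAT genes, 1 was at least 1.5-fold higher in Her2, 3 in C3Tag, 1 of 5 in BALB, 0 in SEAGN and 2 in AKR-named, and 0 were lower. Of all genes, 4.84%, 13.8%, 5.34%, 6.1% and 12.9% were higher in the same order. Lower were 3.27%, 5.1%, 5.2%, 6.8% and 5.59% of all genes. Socs3, a feedback inhibitor of cytokine receptors, was at least 1.5-fold higher in 4 tables, at 0.70, 0.71, 0.74 and 0.99, and had 0.30 in SEAGN.

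A separate list of 44 other interferon-responsive genes was also lowest in BALB and highest in AKR-named. Its median was -0.16 in Her2, -0.18 in C3Tag, -0.29 in BALB, 0.05 in SEAGN and 0.71 in AKR-named. In AKR-named 25 of 41 with means were at least 1.5-fold higher, where 12.9% of all genes were, and 1 was lower. In BALB 8 of 31 were at least 1.5-fold lower, where 5.2% of all genes were, and 1 was higher. The counts were 1 higher and 3 lower of 43 in Her2, against 4.84% and 3.27% of all genes, 4 and 4 of 43 in C3Tag, against 13.8% and 5.1%, and 2 and 2 of 30 in SEAGN, against 6.1% and 6.8%. Ifitm1, which restricts virus entry and is also expressed in many cells without interferon, was the single gene of these lists at least 1.5-fold higher in all 5 tables, from 0.84 in BALB to 3.28 in AKR-named, where its means were 60.8 in PT and 600.0 in Lung met. Slfn8, a Schlafen family gene, was at least 1.5-fold lower in C3Tag (-0.60), BALB (-0.79) and SEAGN (-0.83), and Mndal, of the p200 family of DNA-binding proteins, in the same 3 (-0.77, -0.86 and -1.04). Ifi205, of the same family, was lower in all 3 tables in which it had means, at -3.10 in Her2, -1.73 in C3Tag and -0.94 in AKR-named. It was the 1 gene of the list that was lower in AKR-named.

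**Figure D5:**
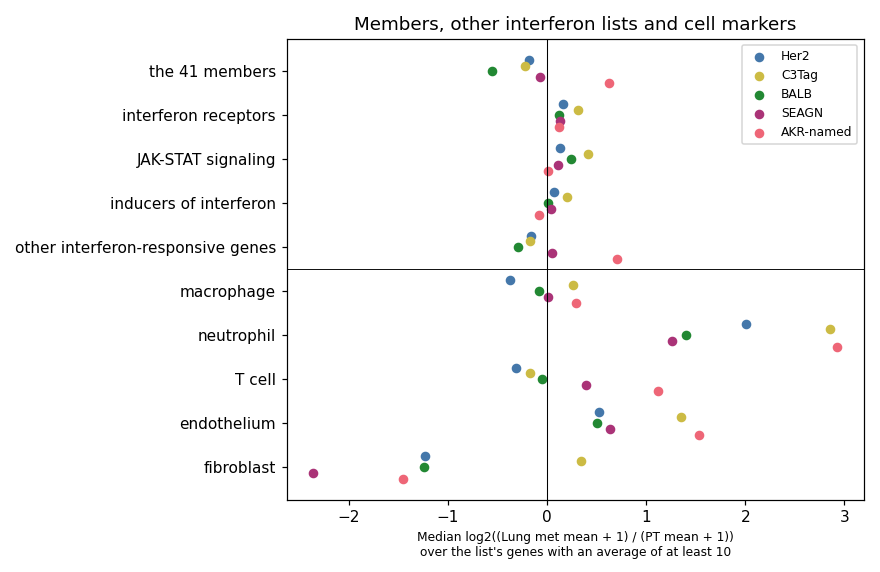
Median log2 ratio of Lung met over PT for the 41 members, 4 other interferon lists and 5 lists of cell markers, with 1 point per table. The members and the other interferon-responsive genes are highest in AKR-named (0.63 and 0.71), whereas receptors lie between 0.12 and 0.31 in all tables and neutrophil markers are higher in all.

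Markers of other cells differed between PT and Lung met too, and their part in the member ratios was not tested. The luminal markers Krt8, Krt18, Epcam, Elf5 and Esr1 had summed means that differed by a log2 ratio of -0.09 to 0.19 over the tables. Within that sum C3Tag held Esr1 (-1.20), Epcam (-0.68) and Elf5 (-0.61) at least 1.5-fold lower and Krt8 (0.64) at least 1.5-fold higher, and Esr1 was also at least 1.5-fold lower in SEAGN (-0.71) and AKR-named (-0.79). Lamp3, the only alveolar type 2 marker of 4 with means, was higher in Lung met in every table, from 4.61 to 7.80.

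In AKR-named the summed means of 3 of 4 neutrophil markers were 635 in PT and 7842 in Lung met, those of all 4 endothelial markers 1817 and 5788, those of all 5 macrophage markers 5669.5 and 7344 and those of all 5 T cell markers 122 and 211. The macrophage markers Cd68 (1.16) and Mrc1 (0.72) were at least 1.5-fold higher, whereas Adgre1 (-0.14) and Csf1r (-0.06) were below 0. Of the T cell markers 3 were at least 1.5-fold higher, and Cd8a (-0.42) was below 0. The fibroblast sums there were 13252 and 5476. C3Tag, in which the members had a median of -0.22, had neutrophil sums of 451 and 2739 and endothelial sums of 2258 and 5452. The T cell sums there were 179 and 155 over 3 of 5 markers. Natural killer cell markers had means for 2 of 4 genes in AKR-named, with sums of 27.2 and 101, and for 0 of 4 in BALB and SEAGN. They were also higher in Lung met in C3Tag (2 of 4 genes, sums of 28.7 and 42.1) and Her2 (1 of 4, 8.28 and 14.8).

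In BALB, where each member with means was lower, the macrophage sums were 1136 in PT and 1148 in Lung met, and the neutrophil sums 219 and 596. The fibroblast sums were 8639 and 2771, and those of 2 of 4 skeletal muscle markers 421 and 10.3. Skeletal muscle sums were lower in Lung met also in Her2 (353 and 31.1), C3Tag (1140 and 54.1) and SEAGN (72.8 and 7.67, 1 marker). They were higher in AKR-named (35.4 and 54.8). In SEAGN, where the members had a median of -0.08, the fibroblast sums were 11915 and 2325 and the macrophage sums 1313 and 1359. In Her2 the macrophage sums were 8005 and 5792, and the fibroblast sums 10199 and 4952. In C3Tag the fibroblast sums were 25852 and 23132. Within that sum Dcn (0.75) and Pdgfra (0.80) were at least 1.5-fold higher and Col1a1 (-0.62) at least 1.5-fold lower. The median ratio of the 4 markers there was 0.34. Pdgfra, 1 of the 4 fibroblast markers, was higher in Lung met in all 5 tables, from 0.44 in SEAGN to 0.94 in AKR-named. For plasmacytoid dendritic cells, a main source of type I interferon, 1 or 2 of 4 markers had means in each table, with sums of at most 60.1 in either tissue. No marker of these lists had a mean at 0 in both tissues, and markers without a row are not analysed here.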

How the data were processed

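The authors aligned RNA-seq reads of PT and Lung met tissue, counted them per gene and normalized them in Partek Flow, by a method not given in the sources used here. The authors used DESeq2 to compare the tissues of the crosses, and Gene Specific Analysis for Her2, C3Tag and Myc. The methods name mm9 and mm10, and the submitters' processing notes name mm39 and STAR 2.7.8a. The unit used, a signal, is the least-squares mean of normalized counts that the authors deposited per gene and tissue in 5 tables. The p-value, FDR, ratio and fold change columns, and the whole Myc table, hold the authors' own comparisons and were not used.

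A log2 ratio with a pseudocount of 1 was computed for genes with an average of at least 10, and genes past 1.5-fold were counted. No test was possible. Both means are given for the 3 highest and 3 lowest members of each table, and other pathway genes are named when past 1.5-fold the same way in 3 or more tables. Further means were chosen after their values were seen. The members and lists were chosen with earlier results of these data known. One gene of the JAK-STAT list is not reported here. Only the 1.5-fold count was run on simulated data, with set 2-fold changes and no noise, so its outcome was fixed in advance. Medians and class differences were not tested in this way. Python 3.11.15, numpy 2.4.6 and pandas 2.3.3 were used. Alternatives were other pseudocounts, filters, folds, centring and class rules.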

Additional observations from a re-analysis of the deposited data

How the results depend on the processing

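Of 100 values recomputed under the alternatives, 90 moved by at most 0.1 (log2) or 1.5 times (counts). The sign turned in 1 of these, the difference between type I-like and gamma-like members in Her2, which was -0.04 with medians and 0.0092 with means of each class. The 20 values recomputed without a minimum and the 15 with a minimum average of 50 could not move. The lowest average of any member with means was 89.2, in SEAGN, so both settings kept the same members. At 2-fold the members counted as higher fell to 10 in AKR-named and 0 in C3Tag, and those counted as lower to 3 in BALB and to 0 in C3Tag and SEAGN, which the stricter fold itself sets. With a pseudocount of 10, 1 member was 1.5-fold lower in SEAGN. The difference between type I-like and gamma-like members was -0.35 in C3Tag with Irf1 counted as type I-like. It was -0.20 in SEAGN with means of each class in place of medians. Without the Ifit and Oas genes, an alternative chosen after seeing the data, the median was -0.44 in BALB and 0.45 in AKR-named. The cause of these shifts was not tested further. No paired analysis was possible because the tables hold 1 mean per tissue, and for the same reason no replicate could be left out. Depth and spread between animals are unknown, so small ratios such as those of Her2 have no error.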
